A study of Mus musculus with 35 samples.

Results

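The glucocorticoid receptor gene Nr3c1 was examined in cultured macrophages together with 6 genes that hold the receptor in its hormone-binding state, exchange on it or supply it with hormone. These are the cytosolic Hsp90 genes Hsp90aa1 and Hsp90ab1, the Hsp90 co-chaperone p23 gene Ptges3, the immunophilins Fkbp5 and Fkbp4, and the hormone-activating enzyme gene Hsd11b1. The 7 members were taken by their symbols from the 47069 gene identifiers measured. Without hormone the receptor waits in the cytoplasm on Hsp90, with p23 closing the complex and an immunophilin docked on the Hsp90 tail. Fkbp5 encodes FKBP51, which lowers hormone affinity, and Fkbp4 encodes FKBP52, which replaces it after hormone binding and links the complex to transport into the nucleus. Fkbp5 is also a target gene of the receptor, so that its rise is part of a known feedback. Hsd11b1 encodes the enzyme that turns inactive 11-keto steroids into active hormone, a step that dexamethasone does not need.

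RNA-seq was performed on bone marrow-derived macrophages (BMDMs) of C57BL/6 mice, matured in L929-conditioned medium. Wild-type cells and cells labelled AMPKa1-/- were exposed for 24 h to vehicle (DMSO), 100 nM dexamethasone (Dex, a synthetic glucocorticoid), 100 ng/ml lipopolysaccharide (LPS), LPS + Dex, 1 µg/ml DAMPs (damage-associated molecular patterns, of a kind the labels do not name) or DAMPs + Dex. Each group has 3 libraries except wild-type LPS with 2, replicates 2 and 3 (replicate 1 was not analysed here), so 17 wild-type libraries and 18 labelled AMPKa1-/- were used. Library totals, read from the step that 1 fragment makes in the deposited values, ran from 15837203 to 31955298 fragments. These are bulk libraries, in which less RNA per cell and fewer cells that carry it cannot be told apart.

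On GRCm38 with GENCODE M21, Hsp90aa1 (ENSMUSG00000021270) lies at chr12:110690605-110702728 and Hsp90ab1 (ENSMUSG00000023944) at chr17:45567775-45573271. Ptges3 (ENSMUSG00000071072) lies at chr10:128058954-128077272, Fkbp5 (ENSMUSG00000024222) at chr17:28399094-28517527, Fkbp4 (ENSMUSG00000030357) at chr6:128429735-128438677 and Hsd11b1 (ENSMUSG00000016194) at chr1:193221634-193264075, and the receptor gene Nr3c1 (ENSMUSG00000024431) is on chromosome 18. All but Ptges3 are read from the minus strand.

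Prkaa1, the gene whose deletion the AMPKa1-/- label names, was not lower in the libraries so labelled when they had vehicle. Its level was then 14.8, 16.5 and 15.4 FPKM (fragments per kilobase of exon, scaled to library size) in them and 15.9, 11.8 and 15.3 FPKM in wild-type libraries. Under the label its group mean was lower with Dex, LPS and LPS + Dex (18.6, 10.2 and 11.7 FPKM, against 22.8, 12.9 and 14.3 FPKM) and higher with DAMPs and DAMPs + Dex (14.3 and 21.9 FPKM, against 13.8 and 17.7 FPKM), and in each of the 6 treatments the genotypes' ranges overlapped. A gene-level value cannot show a deletion of some exons, so it neither bears the label out nor disproves it, and these are called the libraries labelled AMPKa1-/- throughout. Prkaa2, the gene of the other catalytic subunit, lay at a group mean of 0.117 FPKM or less in every group. The macrophage label fits the markers: all 8 listed macrophage markers had group means of at least 1 FPKM in all 12 groups, led by Lyz2. Of the 8 neutrophil markers, Ly6g was under 0.1 FPKM on average in every group. Mpo and Elane also lay under 0.1 FPKM in every wild-type group, and under the AMPKa1-/- label Mpo reached a mean of 0.173 FPKM with Dex and Elane 0.205 FPKM with vehicle. Others of the list were well above 0, with means of up to 98.0 FPKM for Mmp8, 123 FPKM for Camp and 747 FPKM for S100a8.

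Targets of the receptor rose with Dex, which checks the treatment label. All 8 check genes were higher with Dex than with vehicle in both genotypes (limma, adjusted p under 0.05), and their median log2 fold changes were 2.83 in wild-type libraries and 2.11 in those labelled AMPKa1-/-. The median of all genes tested was 0.05 and -0.05. Tsc22d3, the leucine zipper gene GILZ, averaged 53.5 FPKM with vehicle and 709 FPKM with Dex in wild-type libraries. LPS alone took Tsc22d3 down to 2.99 FPKM. All 6 LPS check genes rose with LPS in both genotypes, among them Il6 with a mean of 507 FPKM in wild-type LPS libraries.

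The 7 genes covered a wide span of levels, compared here as FPKM, which is per length. Hsp90ab1 was highest, with 919 to 3302 FPKM over all 35 libraries. Hsp90aa1 followed with 73.3 to 1007 FPKM. Ptges3, Fkbp4 and Nr3c1 lay between 19.6 and 114 FPKM in every library. Fkbp5 spanned 0.792 to 431 FPKM, and Hsd11b1 0 to 6.01 FPKM with 3 libraries at 0. Every one of the 7 reached the mean of 1 FPKM over the 35 libraries that was required for testing, but Hsd11b1 only through the LPS + Dex libraries, with a mean of 1.00 FPKM. It is therefore left out of the counts of members below and described by itself.

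**Figure D1:**
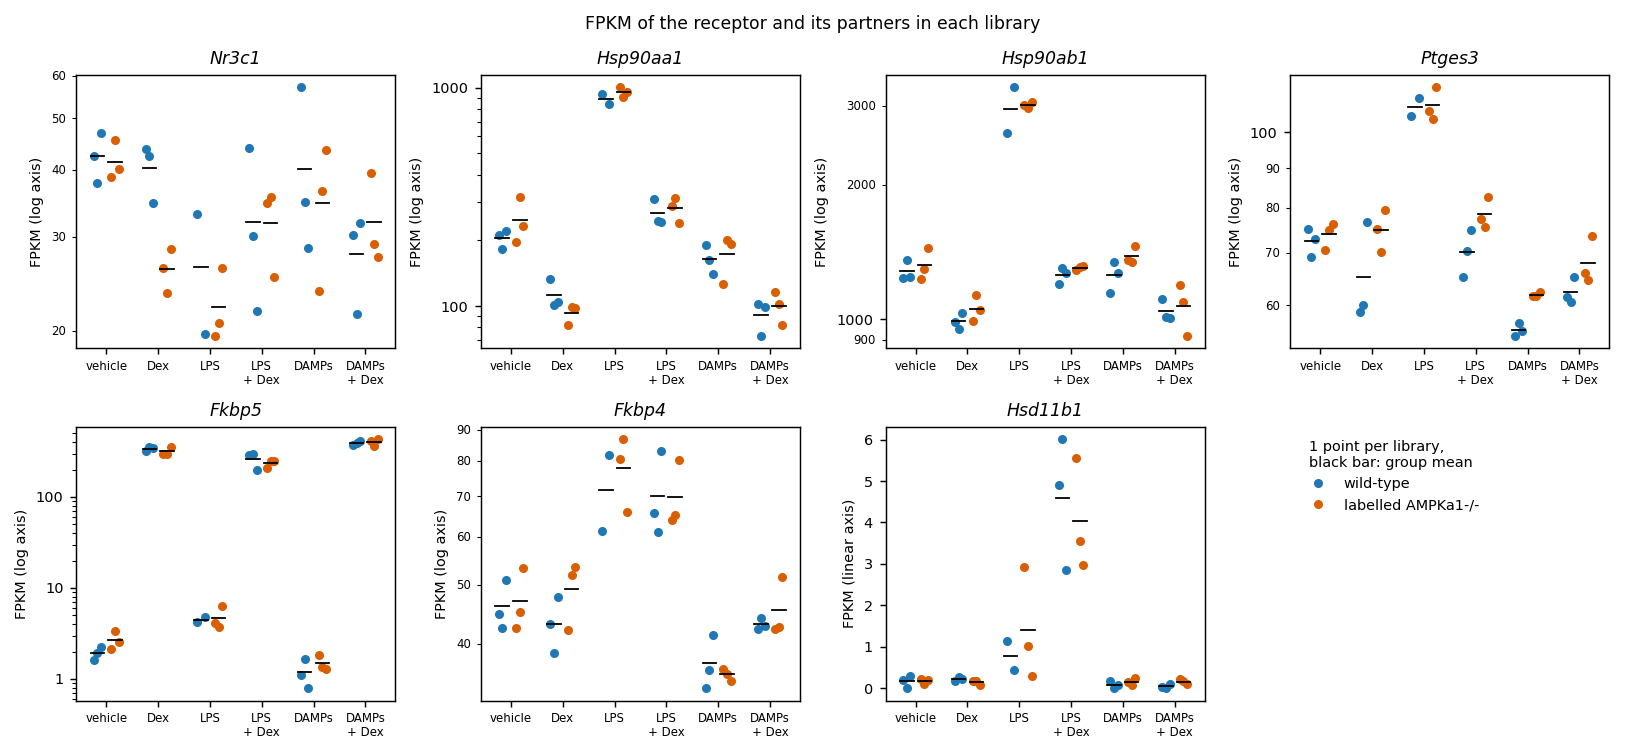
FPKM of the 7 members in each of the 35 libraries (y axis, log scale except for Hsd11b1; x axis, treatment), in wild-type libraries (blue) and libraries labelled AMPKa1-/- (orange), with 1 point per library and a black bar for the group mean. Fkbp5 stands at 198 FPKM or more in every library with Dex and at 6.39 FPKM or less in every library without it, while Hsp90aa1 and Hsp90ab1 peak with LPS alone.

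Fkbp5 made the widest move. With vehicle its level was 1.60, 1.91 and 2.23 FPKM in wild-type libraries and 2.12, 3.34 and 2.56 FPKM in those labelled AMPKa1-/-. With Dex it was 321, 355 and 346 FPKM and 299, 297 and 356 FPKM, respectively. The groups did not come near each other, and the ratio of the means was 178 in wild-type libraries and 119 in the others. The log2 fold change on the FPKM + 1 scale was 6.88 ± 0.16 (SE; limma, adjusted p = 4.58e-22) and 6.45 ± 0.16 (adjusted p = 2.59e-21). By size of the log2 fold change Fkbp5 took place 2 among 11354 genes in each genotype. At the GENCODE exon length the vehicle values would be 278 to 579 fragments per library and the Dex values 48450 or more. The deposited values may rest on another exon length, so these numbers are approximate.

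The same gene answered Dex on every background. With LPS, Fkbp5 stood at 4.24 and 4.75 FPKM in the 2 wild-type libraries and at 4.10, 3.69 and 6.39 FPKM in those labelled AMPKa1-/-. LPS + Dex took it to 287, 297 and 198 FPKM and to 211, 250 and 249 FPKM. All 5 libraries with LPS alone lay above all 6 with vehicle. Within each genotype all 3 libraries with LPS + Dex lay below all 3 with Dex. The rise with LPS alone was 0.92 ± 0.18 (limma, adjusted p = 0.00011) and 0.62 ± 0.16 (adjusted p = 0.00168), and the latter was 1.03 under quantile normalization and 0.95 with libraries centred within 20 bins of exon length. By group means LPS + Dex stood 57.9 times as high as LPS in wild-type libraries. The Dex effect with LPS was 5.55 ± 0.18 in wild-type libraries (limma, adjusted p = 5.18e-19) and 5.40 ± 0.16 in those labelled AMPKa1-/- (adjusted p = 4.76e-20). It was smaller than the Dex effect without LPS by 1.33 ± 0.25 (limma, adjusted p = 0.000152) and 1.05 ± 0.23 (adjusted p = 0.000977) on the log2 scale. By FPKM the start was higher and the end lower. Relative to the median of all genes, Fkbp5 against vehicle was 6.83 with Dex and 6.70 with LPS + Dex in wild-type libraries. Under the AMPKa1-/- label these values were 6.49 and 6.30. LPS + Dex against Dex was not tested. Centred by exon length, the wild-type difference of Dex effects was -0.86 and still passed.

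With DAMPs, Fkbp5 was at 1.10, 1.64 and 0.792 FPKM in wild-type libraries and at 1.85, 1.34 and 1.30 FPKM in those labelled AMPKa1-/-. DAMPs + Dex gave 368, 394 and 418 FPKM and 412, 364 and 431 FPKM. Each of these 6 libraries was above each of the 6 Dex libraries. DAMPs alone changed Fkbp5 by -0.43 ± 0.16 and -0.55 ± 0.16 and passed in neither (adjusted p = 0.257 and 0.0558). The latter passed with a pseudocount of 0.1 FPKM (-0.79, adjusted p = 0.0289) and without vehicle replicate 1 (-0.66, adjusted p = 0.0333). The Dex effect with DAMPs was 7.52 ± 0.16 (adjusted p = 4.28e-23) and 7.34 ± 0.16 (adjusted p = 8.11e-23, place 1 of all genes). It exceeded the effect without DAMPs by 0.64 ± 0.23 and 0.89 ± 0.23 without passing the test (limma, adjusted p = 0.385 and 0.0955).

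Promoter windows were found in the RefSeq table (GRCm38.p6) for 4 of the 7 genes. Those of Fkbp5 and Fkbp4 are shown because the 2 immunophilins compete for one docking site and answered Dex so differently. Each is read 5′ to 3′ on the minus strand and is cut to bases outside the exons as GENCODE draws them. That of Fkbp5 ends just before the RefSeq start, and that of Fkbp4 ends where the GENCODE gene begins, upstream of its RefSeq start. The capitals mark the heat-shock dyad GAANNTTC, searched on both strands together with TTCNNGAA.
Fkbp5, chr17:28486150-28486399: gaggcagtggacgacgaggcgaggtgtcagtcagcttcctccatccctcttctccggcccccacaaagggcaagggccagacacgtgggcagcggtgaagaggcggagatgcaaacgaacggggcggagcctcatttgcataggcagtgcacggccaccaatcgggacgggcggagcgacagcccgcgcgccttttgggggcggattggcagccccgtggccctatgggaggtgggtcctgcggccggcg
Fkbp4, chr6:128438678-128438906: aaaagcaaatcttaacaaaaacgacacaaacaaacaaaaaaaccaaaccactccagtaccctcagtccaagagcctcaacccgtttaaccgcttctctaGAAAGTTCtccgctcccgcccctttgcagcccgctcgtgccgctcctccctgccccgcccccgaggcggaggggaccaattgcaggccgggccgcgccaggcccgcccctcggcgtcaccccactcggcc
The Fkbp5 window lies inside the gene as GENCODE M21 draws it, between exons. The receptor's palindrome, AGAACA followed after 3 bases of any kind by TGTTCT, and its single hexamer AGAACA, which the palindrome contains, were also searched on both strands and matched nowhere in the windows of Fkbp5, Fkbp4, Ptges3 and Hsd11b1. Of all 32851 RefSeq windows of 300 bases, 250 before and 50 after the start, 0.00913% and 19% held them. The dyad, held by 15.1% of all windows, matched 1 time in Fkbp4 and not in the other 3. Such matches describe letters and are no evidence of binding, and sites outside these windows were not searched.

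Fkbp4 did not pass the test with Dex alone. Its level in wild-type libraries was 44.8, 42.4 and 51.0 FPKM with vehicle and 43.1, 38.7 and 47.7 FPKM with Dex. The log2 fold change was -0.09 ± 0.13 (adjusted p = 0.622), and 0.06 ± 0.13 (adjusted p = 0.767) in the libraries labelled AMPKa1-/-. LPS raised it, to 61.2 and 81.8 FPKM in wild-type libraries and to 80.6, 86.8 and 66.0 FPKM in the others. The rise was 0.61 ± 0.15 (limma, adjusted p = 0.00104) and 0.71 ± 0.13 (adjusted p = 4.34e-05), and without wild-type LPS replicate 3 the wild-type rise was 0.41 and no longer passed. Adding Dex to LPS left it at 61.0 to 82.9 FPKM and at 63.9 to 80.3 FPKM. Against LPS alone the change was -0.03 ± 0.15 and -0.15 ± 0.13 (adjusted p = 0.907 and 0.412), and against vehicle it was 0.58 ± 0.13 and 0.56 ± 0.13 (adjusted p = 0.000607 and 0.000843), the latter being 0.85 with libraries centred on one median. DAMPs libraries had 33.8, 36.2 and 41.3 FPKM of Fkbp4 in wild-type cells and 36.4, 35.6 and 34.8 FPKM under the AMPKa1-/- label, below all vehicle libraries of their genotype, and DAMPs + Dex libraries had 42.3 to 44.0 and 42.2 to 51.4 FPKM, above all with DAMPs alone. None of these changes passed without a block (limma). They were -0.31 ± 0.13 and -0.38 ± 0.13 with DAMPs (adjusted p = 0.404 and 0.126) and 0.21 ± 0.13 and 0.34 ± 0.13 with DAMPs + Dex against DAMPs (adjusted p = 0.28 and 0.0661). With the replicate number as a block both changes under the AMPKa1-/- label passed (limma, adjusted p = 0.0481 and 0.0275). Deviations from the group mean, correlated between same-numbered libraries, had r of 0.445, 0.222 and 0.023 for DAMPs with vehicle. For DAMPs + Dex with DAMPs they had r of -0.494, 0.125 and -0.165, so the data do not back a block there.

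The ratio of the immunophilins turned over with Dex. In each library without Dex there was less Fkbp5 than Fkbp4, with FPKM ratios of 0.0192 to 0.0969. In each library with Dex there was more. The ratio was 7.26 to 9.18 in the 3 wild-type Dex libraries, 2.38 to 4.87 with LPS + Dex and 8.70 to 9.76 with DAMPs + Dex. Those labelled AMPKa1-/- had 5.71 to 7.10, 3.10 to 3.83 and 8.38 to 9.74. In both genotypes the LPS + Dex ratios lay below all Dex ratios without overlap. These ratios are of RNA and give no measure of the proteins on the receptor.

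**Figure D2:**
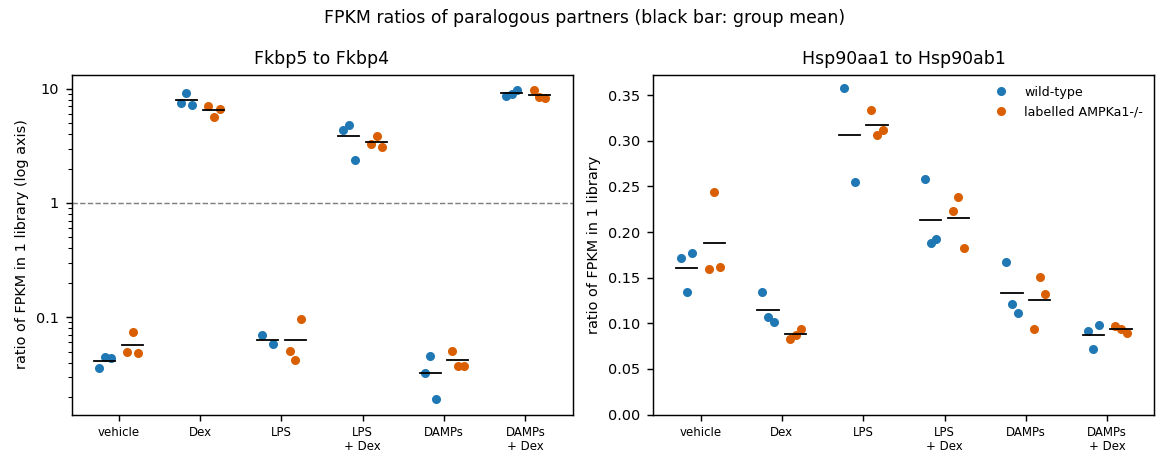
Ratio of Fkbp5 to Fkbp4 FPKM (left, log axis, dashed line at equal FPKM) and of Hsp90aa1 to Hsp90ab1 FPKM (right, linear axis) within each library, by treatment (x axis), in wild-type libraries (blue) and libraries labelled AMPKa1-/- (orange), with black bars for group means. The first ratio is below 0.1 in every library without Dex and above 2.38 in every library with it, and the second is highest with LPS.

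The receptor itself moved far less, and its libraries scattered more. Nr3c1 with vehicle was at 42.5, 37.9 and 46.9 FPKM in wild-type libraries and at 38.8, 45.4 and 40.1 FPKM in those labelled AMPKa1-/-. With Dex it was at 43.8, 42.5 and 34.7 FPKM and at 26.3, 23.6 and 28.5 FPKM. The wild-type groups overlapped, with a log2 fold change of -0.07 ± 0.25 (limma, adjusted p = 0.847). Of those labelled AMPKa1-/-, all 3 with Dex lay below all 3 with vehicle. That fold change, -0.65 ± 0.25, just missed the threshold (limma, adjusted p = 0.0501) and passed it with the replicate number as a block (adjusted p = 0.0355), a block that the data back for this comparison. It also passed with that genotype fitted alone (adjusted p = 0.0201), median centring (0.0352), quantile normalization (0.0307) and a minimum mean of 5 FPKM (0.0479). It did not pass with no filter (adjusted p = 0.109), with no moderation (0.0683) or with any replicate of the 2 groups left out (0.0651 to 0.148). The difference between the genotypes was -0.58 with a 95% interval of -1.29 to 0.14 (adjusted p = 0.305), so lowering of the receptor's RNA by its hormone was not shown to differ between them.

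Exon length moved with this result. Nr3c1 has 7684 exonic bases, and genes with the most exonic bases (6614 or more) had a median log2 fold change with Dex of 0.26 in wild-type libraries and -0.16 in those labelled AMPKa1-/-, beside -0.13 and 0.08 for those with the fewest (2540 or less). With libraries centred within 20 bins of exon length, an alternative chosen after seeing the data, the Dex change of Nr3c1 was -0.34 (adjusted p = 0.124) and -0.57 (adjusted p = 0.00996). The difference between the genotypes was then -0.23 (adjusted p = 0.626). The share of length in the uncorrected difference was not otherwise tested.

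LPS lowered Nr3c1. Its level with LPS was 33.0 and 19.7 FPKM in the 2 wild-type libraries and 19.6, 20.7 and 26.2 FPKM in those labelled AMPKa1-/-. All 5 lay below all 6 vehicle libraries. The log2 fold change was -0.70 ± 0.28 in wild-type libraries (adjusted p = 0.0319) and -0.88 ± 0.25 in the others (adjusted p = 0.00287). All genes tested had a median of -0.19 and -0.30 in these comparisons, so that relative to them Nr3c1 changed by -0.52 and -0.58. The wild-type call was lost without LPS replicate 3 (-0.35), without vehicle replicate 1 (-0.70) or vehicle replicate 3 (-0.63), with no filter on low genes (adjusted p = 0.066), in a fit of wild-type libraries alone (adjusted p = 0.0647) and with the replicate block (-0.57, adjusted p = 0.0677). It held at -1.06 without LPS replicate 2. The value under the AMPKa1-/- label was -0.53 with libraries centred by exon length and still passed.

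No further fall was seen when Dex was added to LPS. LPS + Dex libraries had 44.0, 30.0 and 21.8 FPKM of Nr3c1 in wild-type cells and 34.6, 35.6 and 25.2 FPKM under the AMPKa1-/- label. The ranges overlapped those with LPS alone. Against LPS the log2 fold change was 0.26 ± 0.28 (adjusted p = 0.522) and 0.50 ± 0.25 (adjusted p = 0.12). The second value passed with libraries centred on one median (0.51, adjusted p = 0.0461) and by exon length (0.43, adjusted p = 0.0383). Against vehicle the change was -0.45 ± 0.25 (adjusted p = 0.127) and -0.39 ± 0.25 (adjusted p = 0.184), and the former passed without LPS + Dex replicate 1 (-0.70, adjusted p = 0.0232). Without LPS + Dex replicate 3 of their genotype the values were -0.21 and -0.23. With libraries centred on one median the changes against vehicle were -0.22 and -0.098, and by exon length -0.19 and -0.097. The effect of Dex with LPS minus that without was 1.14 ± 0.35 in the libraries labelled AMPKa1-/- (limma, adjusted p = 0.0137) and 0.33 ± 0.37 in wild-type libraries (adjusted p = 0.515). With libraries centred by exon length these were 1.00 (adjusted p = 0.00158) and 0.74 (adjusted p = 0.0231). Without LPS replicate 3 the wild-type difference was -0.03.

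With DAMPs, Nr3c1 ranged from 28.5 to 57.2 FPKM in wild-type libraries and from 23.8 to 43.7 FPKM in the others. With DAMPs + Dex it ranged from 21.5 to 31.9 FPKM and from 27.5 to 39.4 FPKM. The Dex change of -0.47 ± 0.25 and -0.09 ± 0.25 passed in neither (adjusted p = 0.182 and 0.837), although the wild-type value passed at -0.56 (adjusted p = 0.0124) once libraries were centred by exon length. That value ran from -0.19, without DAMPs replicate 1, to -0.68, without DAMPs replicate 3, and was -0.30 without DAMPs + Dex replicate 2. No pair of neighbours in the order of the 12 group means was free of overlap for Nr3c1.

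**Figure D3:**
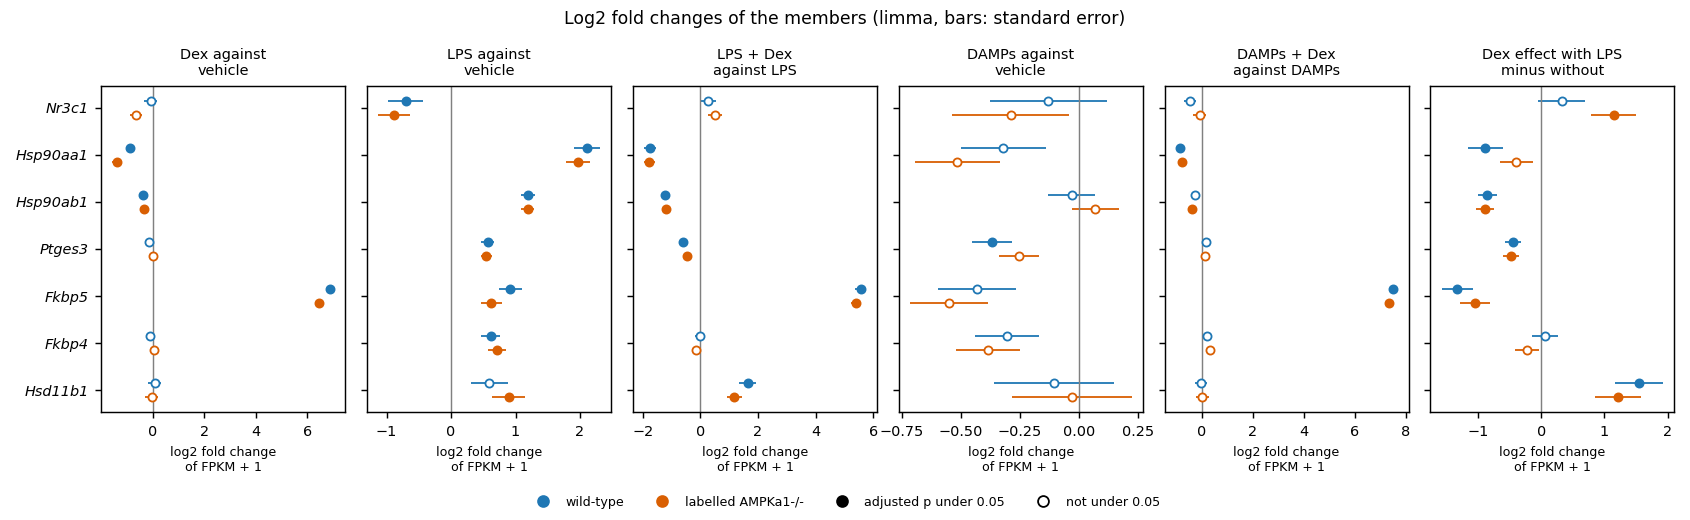
Log2 fold change of FPKM + 1 (x axis, bars: standard error from limma) of each member (y axis) in 5 comparisons and, at the right, the Dex effect with LPS minus that without, for wild-type libraries (blue) and libraries labelled AMPKa1-/- (orange). Filled points have an adjusted p under 0.05, and the x axes differ between panels. All points come from the fit with a minimum mean of 1 FPKM, which Hsd11b1 met only through the LPS + Dex libraries. The tests of Hsd11b1 in the text come from the fit with no minimum. Fkbp5 stands far to the right wherever Dex is added, while both Hsp90 genes go up with LPS and down when Dex is added to it.

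Hsp90aa1, the inducible cytosolic Hsp90, was lowered by Dex and raised by LPS. With vehicle its level was 212, 183 and 220 FPKM in wild-type libraries, and with Dex it was 133, 102 and 104 FPKM. Those labelled AMPKa1-/- had 196, 315 and 234 FPKM with vehicle and 82.5, 99.2 and 98.1 FPKM with Dex. Neither genotype showed overlap. The fall was -0.86 ± 0.18 (limma, adjusted p = 0.000587) and -1.38 ± 0.18 (adjusted p = 1.10e-06) on the log2 scale, and the genotypes' falls differed by -0.52 with a 95% interval of -1.04 to 0.0034 (adjusted p = 0.234).

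LPS brought Hsp90aa1 to 932 and 840 FPKM in wild-type libraries and to 1007, 906 and 953 FPKM in the others. The ratio of the means to vehicle was 4.32 and 3.85. The log2 fold change was 2.11 ± 0.20 (adjusted p = 7.41e-10) and 1.97 ± 0.18 (adjusted p = 2.40e-10), or 2.30 and 2.26 relative to the median of all genes. LPS + Dex libraries had 309, 245 and 243 FPKM and 288, 313 and 241 FPKM. Against LPS alone this was a fall by 1.74 ± 0.20 (adjusted p = 7.06e-08) and by 1.77 ± 0.18 (adjusted p = 5.02e-09). No LPS + Dex library exceeded 313 FPKM and no LPS library fell short of 840 FPKM. Against vehicle, LPS + Dex stood at 0.37 ± 0.18 and 0.20 ± 0.18 (adjusted p = 0.0865 and 0.363). Relative to the median of all genes, -0.23 and -0.28 in these comparisons, the values were 0.60 and 0.47, and both passed with libraries centred on one median (adjusted p = 0.00362 and 0.0151). The uncentred value under the AMPKa1-/- label ran from 0.039, without vehicle replicate 1, to 0.38, without vehicle replicate 2.

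Hsp90ab1, the constitutive cytosolic Hsp90, followed the same course with smaller steps. Wild-type libraries had 1239, 1359 and 1243 FPKM with vehicle and 985, 951 and 1034 FPKM with Dex. LPS took them to 2601 and 3302 FPKM, and LPS + Dex to 1198, 1301 and 1268 FPKM. The LPS libraries were separate from all others. In the libraries labelled AMPKa1-/- the means were 1322 ± 110 with vehicle, 1057 ± 69.9 with Dex, 3012 ± 51.1 with LPS and 1305 ± 14.6 FPKM with LPS + Dex (SD, n = 3). The rise with LPS was 1.2 ± 0.11 (limma, adjusted p = 6.10e-10) and 1.19 ± 0.10 (adjusted p = 5.36e-11). Dex with LPS lowered it by 1.22 ± 0.11 (adjusted p = 1.29e-09) and by 1.21 ± 0.10 (adjusted p = 1.31e-10).

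Without LPS the effect of Dex on Hsp90ab1 was small, -0.37 ± 0.10 (adjusted p = 0.0065) and -0.32 ± 0.10 (adjusted p = 0.0178). It no longer passed under quantile normalization in wild-type libraries (-0.13), nor, in those labelled AMPKa1-/-, with libraries centred on one median (-0.23), without Dex replicate 1 (-0.28) or without vehicle replicate 3 (-0.26). The fall with Dex was larger with LPS than without by 0.85 ± 0.15 (adjusted p = 9.03e-05) and 0.88 ± 0.14 (adjusted p = 2.32e-05), where quantile normalization gave -0.56 for the latter. For Hsp90aa1 the corresponding differences were -0.88 ± 0.27 (adjusted p = 0.0139) and -0.39 ± 0.25 (adjusted p = 0.279), and the wild-type one did not pass without LPS replicate 2 (-0.81). The other ran from -0.23, without vehicle replicate 1, to -0.58, without vehicle replicate 2. LPS + Dex against vehicle gave -0.03 ± 0.10 and -0.01 ± 0.10 for Hsp90ab1 (adjusted p = 0.837 and 0.913), values that turned positive, 0.20 and 0.27, with libraries centred on one median, again without passing.

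The mix of the paralogues shifted as well. Hsp90aa1 amounted to 0.134 to 0.177 of Hsp90ab1 by FPKM in wild-type vehicle libraries and to 0.254 and 0.358 with LPS. With Dex it was 0.101 to 0.135 and with LPS + Dex 0.189 to 0.258. Under the AMPKa1-/- label the ratio was 0.159 to 0.244 with vehicle, 0.306 to 0.334 with LPS, 0.0832 to 0.0936 with Dex and 0.183 to 0.239 with LPS + Dex. The LPS + Dex ratios lay above all vehicle ratios in wild-type libraries and within the vehicle range in the others. It was never above 0.36 in any library. The LPS and vehicle ranges did not overlap in either genotype, and the wild-type Dex range overlapped that of vehicle at its edge. Processed copies near-identical to Hsp90aa1 (Gm12346, Gm5511 and Gm5844, 97.1% identity or more over at least 788 bases) had 1.87 FPKM or less in every library.

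With DAMPs alone Hsp90aa1 was at 141 to 191 FPKM in wild-type libraries and 126 to 202 FPKM in the others, and the change of -0.32 ± 0.18 and -0.52 ± 0.18 passed in neither (adjusted p = 0.668 and 0.126). The second value ran from -0.30, without DAMPs replicate 1, to -0.67, without vehicle replicate 1, where it passed (adjusted p = 0.0469). DAMPs + Dex lowered it to 102, 73.3 and 98.9 FPKM and to 116, 102 and 82.4 FPKM. The fall was by 0.85 ± 0.18 (adjusted p = 0.000706) and by 0.77 ± 0.18 (adjusted p = 0.00182). For Hsp90ab1 the same comparison gave -0.26 ± 0.10 (adjusted p = 0.0594) and -0.38 ± 0.10 (adjusted p = 0.00555). The latter did not pass without DAMPs + Dex replicate 3 (-0.28) or under quantile normalization (-0.27, adjusted p = 0.0765). The wild-type value passed with no moderation (-0.26, adjusted p = 0.0274), centred by exon length (-0.35, adjusted p = 0.0176) and without DAMPs replicate 1 (-0.33, adjusted p = 0.0367).

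Ptges3, the p23 gene, answered LPS with small rises. Its level was 69.2 to 75.3 FPKM with vehicle and 105 and 111 FPKM with LPS in wild-type libraries, and 70.7 to 76.3 FPKM and 104 to 114 FPKM in those labelled AMPKa1-/-. No LPS library overlapped a library of another treatment. The rise was 0.57 ± 0.09 (limma, adjusted p = 9.76e-06) and 0.54 ± 0.08 (adjusted p = 2.65e-06). Dex with LPS lowered it by 0.61 ± 0.09 (adjusted p = 7.49e-06) and by 0.46 ± 0.08 (adjusted p = 6.96e-05), to 65.3 to 75 FPKM and 75.6 to 82.6 FPKM. With libraries centred on one median the rise under the AMPKa1-/- label was 0.82, and quantile normalized, its change with Dex was -0.30. The effect of Dex with LPS minus that without was -0.45 ± 0.13 (adjusted p = 0.00767) and -0.48 ± 0.12 (adjusted p = 0.00302), and the wild-type difference did not pass with libraries centred on one median (-0.29) or quantile normalized (-0.28). Dex alone gave -0.16 ± 0.08 and 0.02 ± 0.08 (adjusted p = 0.147 and 0.903). DAMPs alone lowered it in wild-type libraries to 54.8, 57.0 and 55.6 FPKM, by 0.37 ± 0.08 (adjusted p = 0.0170). The call was lost without DAMPs replicate 1 (-0.36) or 3 (-0.37) and without vehicle replicate 1 (-0.34) or 3 (-0.37), with wild-type libraries fitted alone (adjusted p = 0.126) and with libraries centred on one median (adjusted p = 0.136). Under the AMPKa1-/- label the level with DAMPs was 61.6, 61.6 and 62.4 FPKM, with a change of -0.25 ± 0.08 (limma, adjusted p = 0.10). It passed with the replicate block (adjusted p = 0.0486) and centred by exon length (-0.24, adjusted p = 0.0427). Between same-numbered libraries of these 2 groups, r of the deviations was 0.445, 0.222 and 0.023. LPS + Dex against vehicle gave -0.045 and 0.085 for Ptges3 (adjusted p = 0.675 and 0.397). The second value passed with libraries centred on one median (0.37, adjusted p = 0.0080) and by exon length (0.29, adjusted p = 0.000852). Of Ptges3-ps, a pseudogene that matches 480 bases of the gene with 100% identity, no library had more than 0.370 FPKM.

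The members' counts are given beside those of all 11354 genes tested. Of the 6 members without Hsd11b1, 1 rose and 2 fell with Dex in each genotype. Of all genes, 15.9% rose and 14.9% fell in wild-type libraries (30.9% in all) and 11.9% rose and 16% fell in those labelled AMPKa1-/- (27.9%). With LPS 5 members rose and 1 fell in each genotype, while 19.9% of all genes rose and 35.8% fell in wild-type libraries (55.7%) and 20.2% rose and 44.1% fell in the others (64.3%). LPS + Dex against LPS raised 1 member and lowered 3 in each genotype. The share of all genes was 16.6% higher and 17.5% lower (34.1%), and 19.3% higher and 18.4% lower (37.7%). LPS + Dex against vehicle raised 2 members and lowered 0, beside 17.2% of all genes higher and 37% lower (54.2%), and 16.7% higher and 40.8% lower (57.4%). DAMPs against vehicle lowered 1 member in wild-type libraries (1.22% of all genes higher, 0.793% lower, 2.01% in all) and moved 0 in the others (1.89%, 2.24% and 4.13%). DAMPs + Dex against DAMPs raised 1 and lowered 1 in wild-type libraries (11.7%, 12.6% and 24.3%) and raised 1 and lowered 2 in the others (13.1%, 12.2% and 25.3%).

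The Dex effect, as a signed log2 fold change, was lower with LPS than without for 4 of the 6 in wild-type libraries. Of all genes 14.9% were higher and 17.1% lower there (32%). Lower meant a smaller rise for Fkbp5 and a larger fall for Hsp90aa1, Hsp90ab1 and Ptges3. Under the AMPKa1-/- label the signed effect was higher for 1, Nr3c1, and lower for 3, Fkbp5, Hsp90ab1 and Ptges3. Of all genes 15.5% were higher and 12.8% lower there (28.4%). For Fkbp5 this was again a smaller rise, and for Hsp90ab1 a larger fall. With DAMPs the Dex effect differed for 0 members (0.00881% and 0.308% of all genes). The comparisons with vehicle share the vehicle libraries, and those with LPS share the LPS libraries, so they are not independent of each other.

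Hsd11b1 lay near 0 without LPS. With vehicle, Dex, DAMPs and DAMPs + Dex, its level was at most 0.301 FPKM in any library of either genotype. At its GENCODE exon length that would be 29 fragments or fewer. This number is too high, since low values of the gene step by more than 1 fragment at that length. With LPS alone it was 1.13 and 0.432 FPKM in wild-type libraries and 2.93, 1.01 and 0.302 FPKM in those labelled AMPKa1-/-. With LPS + Dex it was 4.90, 6.01 and 2.84 FPKM and 5.57, 3.55 and 2.97 FPKM. All 6 LPS + Dex libraries stood at 2.84 FPKM or more, and of the others only 1 LPS library labelled AMPKa1-/- came near, at 2.93 FPKM, which is above the lowest wild-type LPS + Dex library.

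Since Hsd11b1 met the minimum only through the group where it is high, its tests are given from the limma fit with no minimum, adjusted over 27414 genes. Its rise from LPS to LPS + Dex was 1.63 ± 0.28 in wild-type libraries (adjusted p = 9.18e-05) and 1.18 ± 0.25 in the others (adjusted p = 0.00102). Dex alone gave 0.08 and -0.04 (adjusted p = 1 in both). The Dex effect with LPS exceeded that without by 1.55 ± 0.38 (adjusted p = 0.00501) and 1.22 ± 0.36 (adjusted p = 0.0213). LPS alone gave 0.60 ± 0.28 in wild-type libraries (adjusted p = 0.128) and 0.89 ± 0.25 in the others (adjusted p = 0.00673). Single libraries weighed heavily here. The second of these values was 0.47 without LPS replicate 1 and no longer passed (adjusted p = 0.108), and the wild-type value ran from 0.31, without LPS replicate 2, to 0.88, without LPS replicate 3. The difference of Dex effects under the AMPKa1-/- label did not pass without LPS replicate 3 (0.85), without LPS + Dex replicate 1 (1.01) or in a fit of that genotype alone (adjusted p = 0.0618). The pseudocount of 1 FPKM understates fold changes at such levels. With 0.1 FPKM the differences of Dex effects were larger, 1.97 and 2.03, but did not pass (adjusted p = 0.126 and 0.105), and the wild-type value with LPS alone was 1.84 and passed (adjusted p = 0.0275). The values that passed before were then 2.06 with LPS under the AMPKa1-/- label and 2.47 and 1.85 for LPS + Dex against LPS, and passed again. These further settings without the minimum were chosen after seeing the data.

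Markers of other cells moved with the treatments too, and their part in these results was not tested. The sum of the 8 neutrophil markers was 6.35 to 30.5 FPKM in wild-type vehicle libraries, 124 and 161 FPKM with LPS and 512 to 1200 FPKM with LPS + Dex, where S100a8 led with a mean of 747 FPKM. In the libraries labelled AMPKa1-/- it was 30.3 to 46.3, 128 to 139 and 337 to 624 FPKM. Without LPS the sum was also higher with Dex, at 19.5 to 36.2 FPKM in wild-type libraries, which overlapped vehicle, and at 68.7 to 99.6 FPKM in the others, which did not. With DAMPs it was 9.01 to 18.6 and 30.4 to 55.3 FPKM, and with DAMPs + Dex 26.8 to 48.5 and 68.7 to 129 FPKM, without overlap in either genotype. Mmp8 led the sum in these groups. Ly6g stayed under 0.1 FPKM on average in all 12 groups. The sum of the 6 dendritic cell markers was at most 0.819 FPKM in wild-type vehicle libraries and 38.7 and 112 FPKM with LPS, almost all of it Ccr7 with a mean of 73.7 FPKM. With LPS + Dex it was 1.67 FPKM or less. Flt3 and Siglech were under 0.1 FPKM on average in both LPS groups. The 5 fibroblast markers summed to at most 12.9 FPKM and the 4 lymphocyte markers to at most 2.05 FPKM in any library.

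The rest of the chaperone cycle showed which neighbours of Hsp90 moved with it. Of 20 genes of the Hsp70 and Hsp90 cycle, all tested, 9 rose and 1 fell with LPS in wild-type libraries and 11 rose and 2 fell in those labelled AMPKa1-/-, with a median log2 fold change of 0.25 and 0.32 against -0.19 and -0.30 for all genes. Of all genes 19.9% and 20.2% rose with LPS and 35.8% and 44.1% fell, shares against which the LPS counts of every list below are to be read. Dnaja1, a J-domain partner of Hsp70, rose by 2.77 ± 0.13 and 2.39 ± 0.12. Hsph1, an Hsp70 exchange factor, rose by 1.72 ± 0.19 and 1.65 ± 0.17. Stip1, which hands receptors from Hsp70 to Hsp90, rose by 1.58 ± 0.10 and 1.62 ± 0.09, and Hspa8, the constitutive Hsp70, by 1.44 ± 0.17 and 1.51 ± 0.15. LPS + Dex against LPS lowered 6 of the 20 and raised 1 in each genotype, with medians of -0.17 and -0.20, beside 17.5% and 18.4% of all genes lower and 16.6% and 19.3% higher. Hspa8 changed by -1.74 ± 0.17 and -1.42 ± 0.15. The changes of Dnaja1 were -1.47 ± 0.13 and -1.02 ± 0.12.

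Dex without LPS lowered 7 and raised 2 of these 20 genes in wild-type libraries and lowered 5 and raised 3 in those labelled AMPKa1-/- (medians -0.21 and 0.02). Among all genes 14.9% and 16% were lower with Dex and 15.9% and 11.9% higher, the shares for Dex counts by single genotype in every list below. Ahsa1, which drives the ATPase of Hsp90, changed by -1.0 ± 0.13 and -0.37 ± 0.13 with Dex and by -0.76 ± 0.13 and -0.45 ± 0.13 with DAMPs + Dex against DAMPs, and each of these values passed. Ppp5c, a phosphatase that docks on Hsp90 at the same kind of site as the immunophilins, was among those that rose, and with LPS + Dex against LPS it was the 1 gene of the 20 that did. It changed by 0.61 ± 0.14 and 0.44 ± 0.14 with Dex, by 0.83 ± 0.16 and 0.69 ± 0.14 with LPS + Dex against LPS, and by 0.69 ± 0.14 and 0.59 ± 0.14 with DAMPs + Dex against DAMPs. Each of these 6 values passed the test, while LPS alone gave -0.02 and 0.02.

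Of 10 genes of the heat-shock response 8 were tested. With LPS 5 rose and 1 fell in wild-type libraries, and 5 rose and 2 fell in the others, with medians of 0.99 and 0.94. LPS + Dex against LPS lowered 4 and raised 0 in each genotype (medians -0.21 and -0.30), beside 17.5% and 18.4% of all genes lower and 16.6% and 19.3% higher. Hspa1b and Hspa1a, the inducible Hsp70 genes, rose by 4.20 ± 0.36 and 3.28 ± 0.33 in wild-type libraries and by 4.28 ± 0.32 and 3.63 ± 0.30 in the others. Dex with LPS lowered both, with changes of -4.16 ± 0.36 and -4.07 ± 0.32 for Hspa1b and of -3.80 ± 0.33 and -3.79 ± 0.30 for Hspa1a. The pair is near-identical in sequence, so how fragments were shared between them is uncertain. Hspe1, the mitochondrial co-chaperonin, rose by 1.35 ± 0.20 and 1.59 ± 0.18 with LPS, and LPS + Dex against LPS gave -0.01 ± 0.20 and -0.07 ± 0.18, which did not pass. With Dex 2 of the 8, Bag3 and Hspd1, were lower in both genotypes and 0 were higher in both. For counts of genes called in both genotypes, here and for the next list, the share of all genes is not given. Bag3, a co-chaperone of Hsp70, changed by -0.67 ± 0.16 and -0.75 ± 0.16 with Dex, and both passed. Hspd1 changed by -0.36 ± 0.10 and -0.44 ± 0.10. Among the 4 family members of other organelles Hspa5 and Hsp90b1, both of the endoplasmic reticulum, rose with LPS, Hspa5 by 1.46 ± 0.16 and 1.53 ± 0.14 and Hsp90b1 by 1.21 ± 0.15 and 1.24 ± 0.14, and both were above vehicle with LPS + Dex. With LPS 3 of these 4 rose in wild-type libraries and 2 in the others, and none fell (medians 0.76 and 0.71). With Dex 3 of the 4 were lower in both genotypes and 0 were higher in both. They were Hspa5 (-0.73 ± 0.14 and -0.52 ± 0.14), Hsp90b1 (-0.50 ± 0.14 and -0.55 ± 0.14) and Trap1 (-0.36 ± 0.08 and -0.30 ± 0.08). LPS + Dex against LPS lowered Hspa5 (-0.54 ± 0.16 and -0.56 ± 0.14) and Trap1 (-0.41 ± 0.09 and -0.24 ± 0.08) in both and raised 0 in both.

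**Figure D4:**
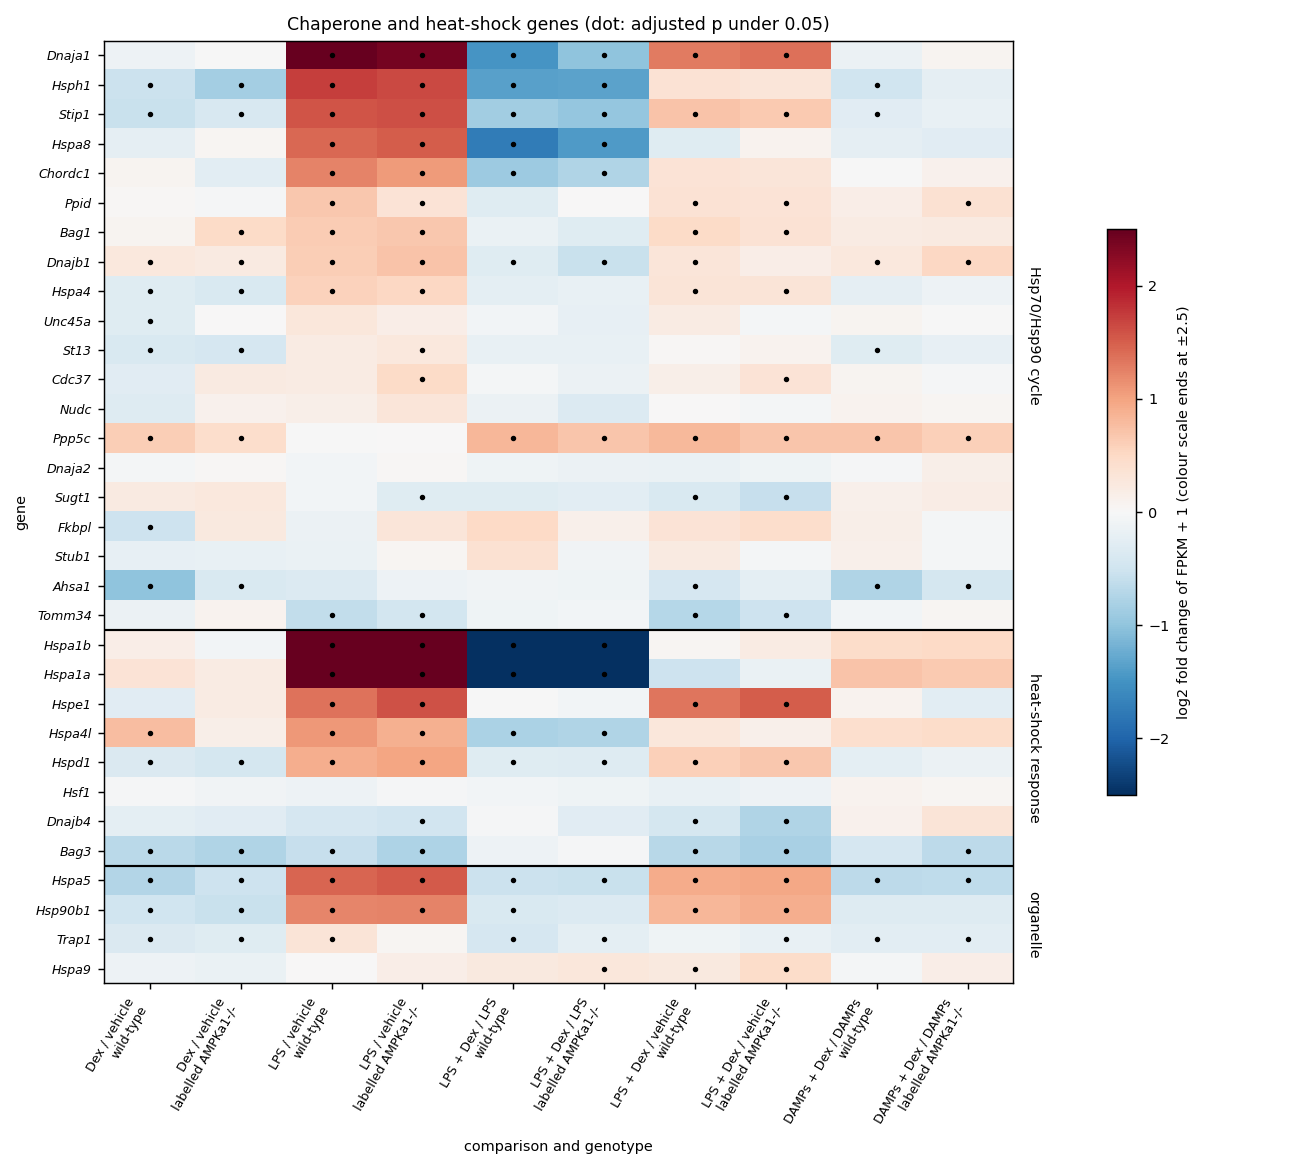
Log2 fold changes of FPKM + 1 (colour, ending at 2.5 in either direction) for the tested genes of 3 chaperone lists (y axis) in 5 comparisons by genotype (x axis), with a dot where the adjusted p was under 0.05. Dnaja1, Hsph1, Stip1 and Hspa8 are red with LPS and blue with LPS + Dex against LPS, while Ppp5c is red in the 8 columns with Dex and near white with LPS alone.

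Other immunophilins moved less with Dex than Fkbp5. Of 11 further FK506-binding protein genes 9 were tested, and with Dex 2 rose and 3 fell in wild-type libraries and 1 rose and none fell in those labelled AMPKa1-/- (medians -0.25 and -0.13). The one that rose in both was Fkbp15, an immunophilin-like protein of endosomes, by 0.72 ± 0.10 and 0.69 ± 0.10. With LPS 1 rose and 6 fell in wild-type libraries, and 1 rose and 7 fell in the others (medians -0.49 and -0.63), where 35.8% and 44.1% of all genes fell. Fkbp1b, a small immunophilin that binds calcium release channels, changed most, by -2.24 ± 0.17 and -1.68 ± 0.15. Fkbp1a, its close paralogue, was the most abundant of the 11 in wild-type vehicle libraries, at a mean of 274 FPKM.

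Of 19 coregulators that the DNA-bound receptor recruits, all tested, 8 rose with Dex and none fell in wild-type libraries, and 1 rose and 2 fell in those labelled AMPKa1-/-. Their medians were 0.45 and -0.07, beside 0.26 and -0.16 for genes of 6614 or more exonic bases, and the part of length in these counts was not tested. Ncoa1, a histone acetyltransferase coactivator, rose in both, by 1.48 ± 0.26 and 0.87 ± 0.26, and again with DAMPs + Dex against DAMPs, by 1.03 ± 0.26 and 1.40 ± 0.26. LPS lowered 6 and 12 of the 19 and raised none (medians -0.29 and -0.63), that is 6 of 19 beside 35.8% of all genes and 12 of 19 beside 44.1%. Among these were Sirt1, a deacetylase, with -0.97 ± 0.26 and -1.38 ± 0.23, and Ncoa3, another acetyltransferase, with -0.83 ± 0.24 and -1.33 ± 0.21.

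Of 10 listed genes of nuclear transport 9 matched an identifier and were tested, and 3 fell with Dex in each genotype while none rose (medians 0.10 and -0.45). These were Calr with -1.37 ± 0.18 and -0.96 ± 0.18, Dynll1, a dynein light chain, with -1.11 ± 0.14 and -0.60 ± 0.14, and Ipo13, an importin, with -0.75 ± 0.13 and -0.65 ± 0.13. With LPS 3 of the 9 rose and 1 fell in each genotype (medians 0.41 and 0.01). Calr rose by 1.27 ± 0.20 and 1.37 ± 0.18 and Dynll1 by 1.18 ± 0.15 and 1.36 ± 0.14, while Ipo13 was the 1 that fell, with -1.16 ± 0.14 and -0.99 ± 0.13. Calr is best known as a chaperone of the endoplasmic reticulum and was listed for its reported part in receptor export. In steroid handling 13 genes were listed, 12 matched an identifier and 5 were tested. With Dex 0 of them changed in wild-type libraries, and 1 rose and 1 fell in the others (medians 0.14 and -0.06). Hsd11b2, the inactivating counterpart of Hsd11b1, had a group mean of at most 0.293 FPKM. Nr3c2, the mineralocorticoid receptor, had at most 0.377 FPKM. H6pd, which supplies Hsd11b1 with cofactor, was expressed in all groups, at means of 18.5 to 32.5 FPKM. Abcb1b, a transporter that exports glucocorticoids, changed with LPS by -2.46 ± 0.23 and -2.36 ± 0.21.

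No member passed the test between the genotypes. With vehicle this was so for all 7, where 49 of 11354 genes did (0.432%). Fkbp5 came nearest, at 0.33 ± 0.16 higher under the AMPKa1-/- label (limma, adjusted p = 0.854). For none of 5 treatment responses did any of the 11354 genes pass limma's test of the difference between genotypes (0% of all genes). At an unadjusted p under 0.05 there were 2441 genes for Dex, 514 for LPS, 311 for LPS + Dex against LPS, 66 for DAMPs and 234 for DAMPs + Dex against DAMPs. With no minimum on FPKM, 21, 118, 75, 2 and 9 of 27414 genes passed for these responses in that order, no member among them. Each other setting called 13 genes or fewer, the 13 for LPS without wild-type LPS replicate 2, and again no member. For Fkbp5 the Dex responses differed by -0.43 with a 95% interval of -0.91 to 0.04, and for Hsp90ab1 by 0.05 with an interval of -0.24 to 0.34. These intervals still admit differences of that size and do not show that the genotypes respond alike.

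Genes with the most similar profiles were sought over the 12 group means of log2(FPKM + 1), as a description. For Fkbp5 these were Ogfrl1, Nrg4 and Hif3a with Pearson's r of 0.989, 0.983 and 0.981. For Hsp90aa1 they were Psmd2, Eef1e1 and Hsph1 (0.993, 0.992 and 0.992), and for Hsp90ab1 Junb, Hcar2 and Rab32 (0.995, 0.992 and 0.992). Ptges3 was most like Clcf1, Eif1ax and Psmd7 (0.968, 0.966 and 0.962), and Fkbp4 most like Abcf2, Selenos and Timm23 (0.972, 0.967 and 0.967). Nr3c1 went with Gcn1l1, Myof and Abca2 (0.970, 0.961 and 0.949), and Hsd11b1 with Dld, Plekhg4 and Tnfaip8l3 (0.987, 0.986 and 0.985). Among the members, r was 0.951 between the Hsp90 genes, and for Fkbp5 it was -0.505 with Hsp90aa1 and 0.135 with Fkbp4. The points share libraries and few treatments set them apart, so a high r says little more than that 2 genes answered the same treatments.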

How the data were processed

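Values of 35 libraries were used as the authors deposited them, as FPKM per Ensembl gene, one library per file, with replicates kept apart. The submitters' processing notes name Bowtie2 2.2.3, TopHat2 2.0.12, HTSeq 0.6.1, DESeq2 and the build GRCm38 (mm10). Of their roles, the annotation and the strand setting nothing is stated in the sources read here. Symbols, exon lengths and positions come from GENCODE M21 (GRCm38), which gave a symbol to 46574 of the 47069 identifiers. FPKM hold no counts, and depth was read from the steps of weakly expressed genes. Of genes with at most 10 fragments, 55.4% to 63.9% per library came out whole within 0.001 fragments, too few to recover reads. Same-group libraries correlated at r = 0.987 to 0.997 across genes and no pair held the same values. Nothing in the labels says what the replicate numbers share. The study counts individual mice, but how mice map to these libraries is not stated, so p-values measure the spread between these libraries, which may be technical in part.

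Members and lists were chosen with earlier results of these data known. Genes named from a list are, for each treatment comparison, among up to 4 with the largest change called in the same direction in both genotypes, besides the members, check genes and markers, Prkaa1 and Prkaa2, and genes near 0. Genes given for their level (Fkbp1a, H6pd) were chosen after their values were seen. Mean FPKM of at least 1 was required. Log2(FPKM + 1) was fitted with limma 3.58.1 in R 4.3.3 (12 groups, no block, trended empirical Bayes, 2-sided), with Benjamini-Hochberg adjustment over 11354 genes at 0.05. Fold changes on this scale understate those of low genes. The wild-type LPS group, with 2 libraries, shares the spread of the other groups. The fit was tested on simulated data. Near-identical copies were sought with BLAST 2.17.0 (95% identity, 200 bases). No annotated exon of another gene overlaps those of the members. Tables were made in Python 3.11.15 with pandas 2.3.3.

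Same-numbered libraries deviated together with r over 0.1 in all 3 pairs for 4 comparisons, all under the AMPKa1-/- label: Dex with vehicle, LPS with vehicle, LPS + Dex with LPS and LPS + Dex with vehicle. So did 3 pairs of wild-type groups that are not compared directly (Dex with DAMPs, Dex with LPS + Dex and DAMPs with LPS + Dex), and no further treatment comparison. The pairing comes from the data, not from the labels. Alternatives were another pseudocount and filter, other scalings, one genotype alone, no moderation, a replicate block, each replicate left out and, added after seeing the data, centring by exon length.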

Additional observations from a re-analysis of the deposited data

How the results depend on the processing

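Of the values of single members under the alternatives, 1220 kept their direction and side of the threshold, 31 lost the call, 32 gained one and 25 changed sign. The tally covers values called in the main fit or listed for reporting, not every value of every member. Values of Hsd11b1, from fits with and without the minimum on FPKM, are included in this tally. Of the counts of members called, 360 stayed within 1.5 times and 12 did not. Counts that stayed at 0 are among the 360, as they did for every treatment response compared between the genotypes. The causes were not tested. Among the 6 members without Hsd11b1, the count for DAMPs against vehicle in wild-type libraries went from 1 to 0 with libraries centred on one median and with 1 genotype fitted alone, and ran from 0 to 1 as replicates were left out. In libraries labelled AMPKa1-/- it went from 0 to 1 with a pseudocount of 0.1 FPKM, to 1 with centring by exon length and to 2 with the replicate block, and ran from 0 to 2 as replicates were left out. The count for DAMPs + Dex against DAMPs in wild-type libraries went from 2 to 5 with centring by exon length. For LPS + Dex against vehicle under the AMPKa1-/- label it went from 2 to 4 with median centring.

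Signs changed for small values. With median centring, quantile normalization and centring by exon length, in that order, Fkbp4 in wild-type LPS + Dex against LPS was at 0.045, 0.082 and 0.064. Hsp90ab1 in wild-type LPS + Dex against vehicle was at 0.20, 0.23 and 0.11, Ptges3 there at 0.18, 0.050 and 0.11, and Hsp90ab1 under the AMPKa1-/- label at 0.27, 0.21 and 0.090. With single replicates left out, these 4 values ran from -0.24 to 0.18, from -0.053 to 0.016, from -0.092 to 0.0061 and from -0.066 to 0.050. Nr3c1 ran from -0.15 to 0.030 for Dex in wild-type libraries and from -0.10 to 0.61 for LPS + Dex against LPS. Its wild-type difference of Dex effects ran from -0.030 to 0.69, and its change with DAMPs + Dex against DAMPs under the AMPKa1-/- label from -0.33 to 0.095.

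With the replicate block the wild-type fall of Nr3c1 with LPS was -0.57 (limma, adjusted p = 0.0677). Under the AMPKa1-/- label the block added calls for Nr3c1 with Dex, for Ptges3 and Fkbp4 with DAMPs (adjusted p = 0.0486 and 0.0481) and for Fkbp4 with DAMPs + Dex against DAMPs (adjusted p = 0.0275), and it changed no other call of a member. Of the comparisons with added calls, only Dex with vehicle had r over 0.1 in all 3 same-numbered pairs. Same-numbered libraries deviated together with r over 0.1 in 25 of 40 wild-type pairs and 29 of 45 under the AMPKa1-/- label, and a library was most like its own number in 21 and 28. Of all genes, 228 were called for DAMPs in wild-type libraries, 94 with 1 genotype fitted alone and 26 to 372 as replicates were left out. For DAMPs under the AMPKa1-/- label 469 were called, and 267 to 311 without DAMPs replicate 1 or 3 or vehicle replicate 2 or 3. Depth limits the values of Hsd11b1, on as few as 0 fragments.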
